A study of Mus musculus with 6 samples.

Results

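The genes described here are those that copy DNA and supply its building blocks in mesenteric arteries, the small arteries that feed the gut, of mice with and without beta1 integrin in smooth muscle. They come from a list of 50 genes chosen by their textbook function in replication, with earlier results of these data known. Of these, 49 were found among the 18193 genes named on the array. Chaf1a is the gene not analysed here.

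Each of 6 mice gave 1 array of total RNA from whole arteries cleared of fat and lymph tissue. All 6 carried loxP-flanked beta1 integrin alleles on a mixed background of FVB, SVJ129 and C57BL/6, and all received 14 daily doses of 1 mg tamoxifen from 5 weeks of age and were studied at 7 weeks. The 3 control mice (animals 30, 74 and 75) had no Cre recombinase. The 3 knockout mice (72, 73 and 86) carried sm22alphaCRE, a Cre driven by a promoter active in smooth muscle. No group carried Cre without the loxP-flanked alleles, so Cre itself and loss of beta1 integrin cannot be told apart. The titles mark knockout 86 with F and the other 5 animals with M. Values in the text are quantile-normalised log2(intensity + 1), given for animals 30, 74, 75 and then 72, 73, 86. Differences are knockout minus control on that scale, with the standard error (SE) from limma. A gene passed the test where limma's p, adjusted by Benjamini-Hochberg over all 18193 genes, lay under 0.05. Whole arteries were measured, so a change in the number of cells of a type and a change in RNA per cell cannot be told apart.

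DNA replication starts when the origin recognition complex (ORC) marks origins and, with Cdc6 and Cdt1, loads the MCM helicase, a step known as licensing. Cdc45 and the GINS complex then turn the loaded MCM ring into an active helicase, polymerase alpha-primase lays primers, and polymerases delta and epsilon extend them on the sliding clamp PCNA. Ribonucleotide reductase, thymidylate synthase and thymidine kinase supply deoxynucleotides. Most smooth muscle cells of an adult artery are not dividing, and many of these genes are transcribed under E2F factors as cells enter S phase.

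The targeted gene, Itgb1, read 11.80, 11.04 and 11.20 in control and 10.51, 10.56 and 10.76 in knockout arteries, a difference of -0.73 (SE 0.23), or 0.601 times control (95% confidence interval 0.407 to 0.889). The groups did not overlap, but the gene missed the threshold (limma adjusted p = 0.236). Where its probe set lies relative to the deleted part is not known here, so the value may not measure the deletion. The smooth muscle gene Tagln, whose promoter drives the Cre, read 13.52 to 13.77 in control and 13.17 to 13.46 in knockout arteries, with no overlap (difference -0.33, adjusted p = 0.368). The lowest deposited intensity per array was 0.78 to 1, so no marker could read 0. The mesothelial marker Msln read 1 on the log2(intensity + 1) scale in knockout 73, which is at this floor. The summed normalised intensity of 12 macrophage markers was 3656 to 6494 in control and 9254 to 30930 in knockout arteries, with 12 of 12 higher and 0 past the test. The highest sum was that of knockout 73, in which 11 lymphocyte and plasma cell markers summed to 5709, against 395.9 to 780.9 in the other 5 arrays. Most of that 5709 came from Jchain, at 12.23 in knockout 73 and 6.21 to 8.68 in the other 5 arrays. The median of the 11 markers was 6.52 in knockout 73, against 4.546 to 5.325 in the other 5 arrays. Cd3d and Cd2 were not highest in knockout 73. Sums of 8 fibroblast markers were 34330 to 42960 and 50870 to 55120, those of 9 endothelial markers 22270 to 25200 and 15880 to 21590, and those of 10 smooth muscle markers 63520 to 85660 and 58740 to 69710. Adipocyte markers summed to 15640 to 39100 and 15820 to 25700, and Schwann cell and nerve markers to 7458 to 9364 and 3857 to 6641. The mesothelial sums were 114.3 to 219.1 and 160 to 213.7, the erythroid sums 99.84 to 120 and 57.4 to 95.06, and those of neutrophils and mast cells 306.5 to 382.3 and 395.6 to 400.1. No gene of any of these lists passed the test. The part of these cell types in the replication results was not tested.

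Of the 49 replication genes, 5 rose in knockout arteries and none fell: the nucleotide supply genes Rrm2 and Tk1, the helicase subunits Mcm5 and Mcm6, and Uhrf1, which guides the copying of DNA methylation. That is 10.2% of the genes, where 0.863% of all genes tested rose and 0.0934% fell. Before adjustment, 24 of the 49 had a p under 0.05 and were higher, against 7.26% of all genes, and 0 were lower, against 8.31%. In 26 of the 49 (53.1%) every knockout array lay above every control array, against 10.4% of all genes. In 0 of the 49 the knockout arrays all lay below, against 12.7% of all genes. In all, 39 of 49 (79.6%) were higher at any p, against 42.6% of all genes. The median difference was 0.52, against -0.07 over all genes. At least 2-fold differences in either direction were seen in 9 of the 49, against 1108 of all 18193 genes. Because the list was chosen with earlier results of these data known, these shares describe it and are not a test.

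The gains were uneven across the machinery. All 6 MCM subunits, all 3 licensing factors, both Okazaki fragment genes and 4 of 5 nucleotide supply genes had groups that did not overlap. The same held for 0 of 6 ORC subunits and 0 of 3 subunits of RPA, the single-strand binding protein. These counts use 1 probe set per gene. Other probe sets of Orc1, Orc4, Rpa2 and Tyms lay above control without overlap, and another of Orc3 lay below. Conversely, other probe sets of Mcm3, Mcm6 and Cdt1 overlapped, and another of Rrm1 lay below. Whether the roles differ from each other was not tested.

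**Figure D1:**
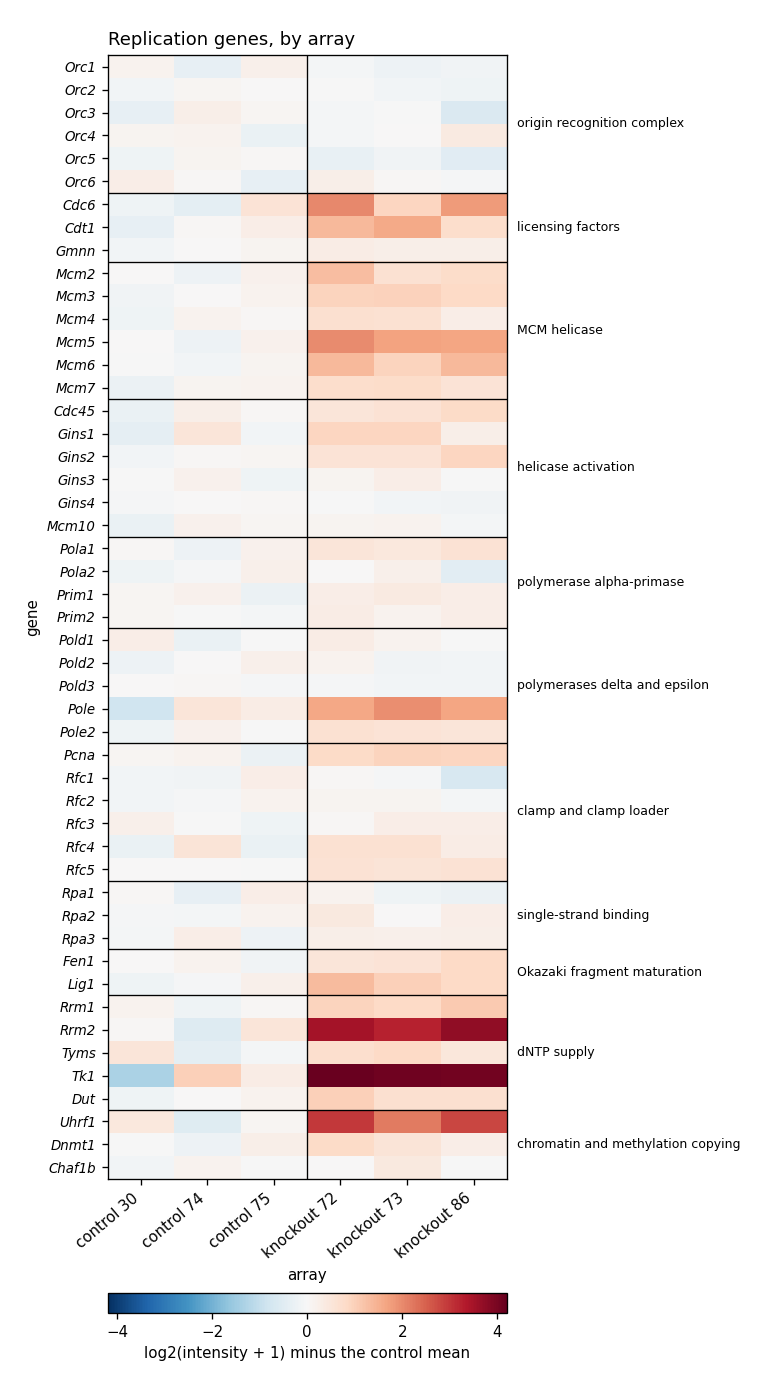
Each row is 1 of the 49 genes and each column 1 array; colour gives log2(intensity + 1) minus the gene's control mean, and lines separate roles. The MCM, licensing and nucleotide supply rows are above the control mean in the 3 knockout arrays, while the ORC rows show no such block.

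Nucleotide supply held the largest differences. Rrm2, the regulated small subunit of ribonucleotide reductase, read 5.84, 5.25 and 6.33 in control and 9.30, 9.05 and 9.54 in knockout arteries. Every knockout array lay above every control array. Rrm2 rose by 3.49 (SE 0.30), or 11.2-fold (95% confidence interval 6.76 to 18.6, adjusted p = 0.00976). Tk1, which salvages thymidine, read 2.84, 5.19 and 4.50 in control and 8.32, 8.26 and 8.22 in knockout arteries. The knockout values lay close together while the control values were spread widely at low signal. Tk1 rose by 4.09 (SE 0.57), or 17.0-fold (6.501 to 44.66, adjusted p = 0.042), and in fits of 5 arrays it kept its call only without control 30, where the difference was 3.42. With a pseudocount of 16 the difference was 3.205, so the size of the fold is loosely set at this signal. Rrm1, the large reductase subunit, read 8.48, 8.15 and 8.40 against 9.28, 9.18 and 9.45, a difference of 0.96 (SE 0.16, adjusted p = 0.0686). Dut, which keeps dUTP out of the nucleotide pool, differed by 0.78 (SE 0.17, adjusted p = 0.13), also with no overlap. Tyms, thymidylate synthase, was the member whose groups overlapped on the probe set used, at 4.90, 3.98 and 4.31 against 5.09, 5.23 and 4.88 (adjusted p = 0.30). Another Tyms probe set, at lower signal, read 3.677, 3.024 and 3.55 against 4.554, 4.925 and 4.229. Its groups did not overlap (difference 1.15, adjusted p = 0.202 over all probe sets). The remaining Tyms probe sets overlapped, with differences of 0.14 and -0.63.

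The 6 MCM subunits form the ring that unwinds DNA, and all 6 were higher, by 0.52 to 1.77 (median 0.91). Mcm5 read 7.57, 7.35 and 7.74 in control and 9.53, 9.23 and 9.20 in knockout arteries. It rose by 1.77 (SE 0.18), or 3.42-fold (adjusted p = 0.0146). Mcm6 read 8.95, 8.84 and 9.07 against 10.32, 9.88 and 10.33 and rose by 1.22 (SE 0.18), or 2.33-fold (adjusted p = 0.0461), but by 0.62 (adjusted p = 0.34) with its probe sets averaged. In both genes the lowest knockout array stood clear of the highest control array. Mcm3 differed by 0.92 (SE 0.15, adjusted p = 0.058) and Mcm7 by 0.70 (SE 0.17, adjusted p = 0.15). Mcm2 and Mcm4 had adjusted p values of 0.158 and 0.26.

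Licensing factors, which place the MCM ring on origins, did not pass the test, but in each the groups did not overlap. Cdc6 read 4.001, 3.785 and 4.769 against 6.189, 5.075 and 5.981, a difference of 1.56 (SE 0.38, adjusted p = 0.152). Cdt1 differed by 1.23 (SE 0.28, adjusted p = 0.133). Gmnn, the inhibitor of Cdt1, differed by 0.26 (SE 0.13, adjusted p = 0.405).

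The ORC subunits, which mark origins, differed by -0.32 to 0.11 with a median of -0.12, and all 6 had overlapping groups on the probe sets used. Orc3 read 8.53, 9.09 and 8.96 against 8.78, 8.83 and 8.26, a difference of -0.23 (95% confidence interval -0.80 to 0.33). Orc5 differed by -0.32 (SE 0.16, adjusted p = 0.40). When all probe sets of each gene were averaged, Orc1 and Orc2 turned to positive differences of 0.46 and 0.38, and Orc4 and Orc6 changed sign in fits of 5 arrays, so no direction can be given for these 4. A second Orc1 probe set, at lower signal, read 3.70, 3.87 and 3.52 against 4.67, 4.42 and 5.15 (difference 1.05, adjusted p = 0.192 over all probe sets).

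Promoter sequences of 5 genes are shown as examples: Mcm5, Mcm6 and Rrm2, which rose, and Orc3 and Gins3. The last 2 have an E2F match in their windows, and their groups overlapped on the probe sets used. RefSeq windows on GRCm38.p6 were held for 42 of the 50 genes, 53 windows in all. The 250 bases before each start were searched on both strands for 4 spellings of an E2F site: TTTGGCGC, TTTCGCGC, TTTCCCGC and TTTGCCGC. A match stood in 11 of 53 windows (20.8%), against 2.35% of 21263 windows of protein-coding genes. Among genes whose groups did not overlap it stood in 7 of 28 windows (25%), and among those with overlap in 4 of 24 (16.7%). The MCM genes had it in 3 of 6 windows (in Mcm5, Mcm6 and 1 of the 2 Mcm7 windows; Mcm4 had no window) and the ORC genes, several with more than 1 window, in 2 of 9 (Orc1 and Orc3). The CCAAT box, searched as CCAAT, stood in 29 of 53 windows (54.7%, against 35.4%) and in 6 of 6 MCM windows. The CHR element, searched as TTTGAA, stood in 6 of 53 (11.3%, against 14.5%). A match is a run of letters and not a measured site. The sequences run 5′ to 3′ on the gene's strand, cut where they would enter the gene, with E2F matches in capitals. Mcm5 is chr8:75109259-75109467 (plus strand), Mcm6 chr1:128359706-128359955 (minus), Orc3 chr4:34614964-34615192 (minus), Gins3 chr8:95633309-95633558 (plus) and Rrm2 chr12:24708004-24708253 (plus).
Mcm5: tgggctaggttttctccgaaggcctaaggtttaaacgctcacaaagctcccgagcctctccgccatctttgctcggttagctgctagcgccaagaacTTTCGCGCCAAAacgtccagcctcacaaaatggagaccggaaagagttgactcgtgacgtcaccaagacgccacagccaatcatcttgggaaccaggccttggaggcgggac
Mcm6: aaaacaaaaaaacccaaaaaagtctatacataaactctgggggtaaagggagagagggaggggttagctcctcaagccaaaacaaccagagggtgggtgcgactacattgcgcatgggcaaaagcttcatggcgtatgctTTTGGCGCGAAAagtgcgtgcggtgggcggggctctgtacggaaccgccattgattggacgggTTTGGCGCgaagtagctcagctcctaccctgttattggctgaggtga
Orc3: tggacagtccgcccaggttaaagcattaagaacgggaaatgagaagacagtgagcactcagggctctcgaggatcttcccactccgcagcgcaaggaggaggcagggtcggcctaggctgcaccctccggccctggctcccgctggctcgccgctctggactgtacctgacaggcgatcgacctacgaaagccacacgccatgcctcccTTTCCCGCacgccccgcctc
Gins3: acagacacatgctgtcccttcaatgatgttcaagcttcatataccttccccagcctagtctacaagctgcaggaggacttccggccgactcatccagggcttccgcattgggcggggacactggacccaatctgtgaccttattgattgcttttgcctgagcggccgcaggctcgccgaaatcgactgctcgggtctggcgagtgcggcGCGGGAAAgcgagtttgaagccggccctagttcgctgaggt
Rrm2: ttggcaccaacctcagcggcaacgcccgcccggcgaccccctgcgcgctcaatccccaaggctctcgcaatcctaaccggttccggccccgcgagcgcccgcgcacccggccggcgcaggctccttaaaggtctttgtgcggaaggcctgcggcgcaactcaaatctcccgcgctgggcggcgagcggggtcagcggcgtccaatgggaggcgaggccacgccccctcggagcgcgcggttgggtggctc
In Mcm5 and in the first block of Mcm6, matches on opposite strands overlap. Orc3 and Gins3, whose groups overlapped on the probe sets used, each hold a match 41 bases before the start. Another Gins3 probe set lay above control without overlap, and another of Orc3 lay below. Rrm2, which rose 11.2-fold, holds none of the 4 spellings in this window, which says only that these letters are not there.

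Helicase activation was mixed. Cdc45, which rides with the MCM ring, read 5.12, 5.64 and 5.46 against 5.92, 6.02 and 6.21, a difference of 0.64 (SE 0.19, adjusted p = 0.206). Of the 4 GINS subunits, Gins2 differed by 0.70 (SE 0.16, adjusted p = 0.133) with no overlap and Gins1 by 0.68 (adjusted p = 0.343) with overlap. Gins3 and Gins4 differed by 0.13 and -0.09. Another Gins3 probe set, at lower signal, read 5.072, 5.455 and 4.594 in control and 5.563, 5.711 and 5.619 in knockout arteries. Its groups did not overlap (difference 0.59, adjusted p = 0.404 over all probe sets). A second Gins2 probe set read 3.82, 4.30 and 3.85 against 5.96, 5.86 and 5.76 and rose by 1.87 (adjusted p = 0.0295 over all probe sets). Mcm10, which joins helicase and primase, differed by 0.06, and by -0.32 with the mean of its probe sets. Another Mcm10 probe set, at lower signal, read 4.172, 3.838 and 3.439 against 3.136, 2.684 and 3.049. It lay below control without overlap (difference -0.86, adjusted p = 0.274 over all probe sets). The remaining Mcm10 probe set overlapped, with a difference of -0.17.

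Among the polymerase genes, the largest difference was that of Pole, the catalytic subunit of polymerase epsilon. Pole read 4.34, 5.70 and 5.51 in control and 6.80, 7.13 and 6.85 in knockout arteries, a difference of 1.75 (SE 0.37), or 3.36-fold (adjusted p = 0.122). Its partner Pole2 differed by 0.58 (SE 0.15, adjusted p = 0.175), also with no overlap. The 3 polymerase delta subunits, Pold1, Pold2 and Pold3, had overlapping groups and differences of 0.15, -0.03 and -0.10. Of the primer-making complex, Pola1 differed by 0.52 (adjusted p = 0.231), and the primase subunits Prim1 and Prim2 by 0.31 and 0.25. In all of these the groups did not overlap on the probe sets used. Another probe set of each did overlap, with differences of -0.15 for Pola1, 0.20 for Prim1 and -0.15 for Prim2. A further Prim2 probe set lay above control without overlap (difference 0.68). Pola2 differed by -0.07. Without normalization between arrays, the signs of Pola2 and Pold2 turned.

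**Figure D2:**
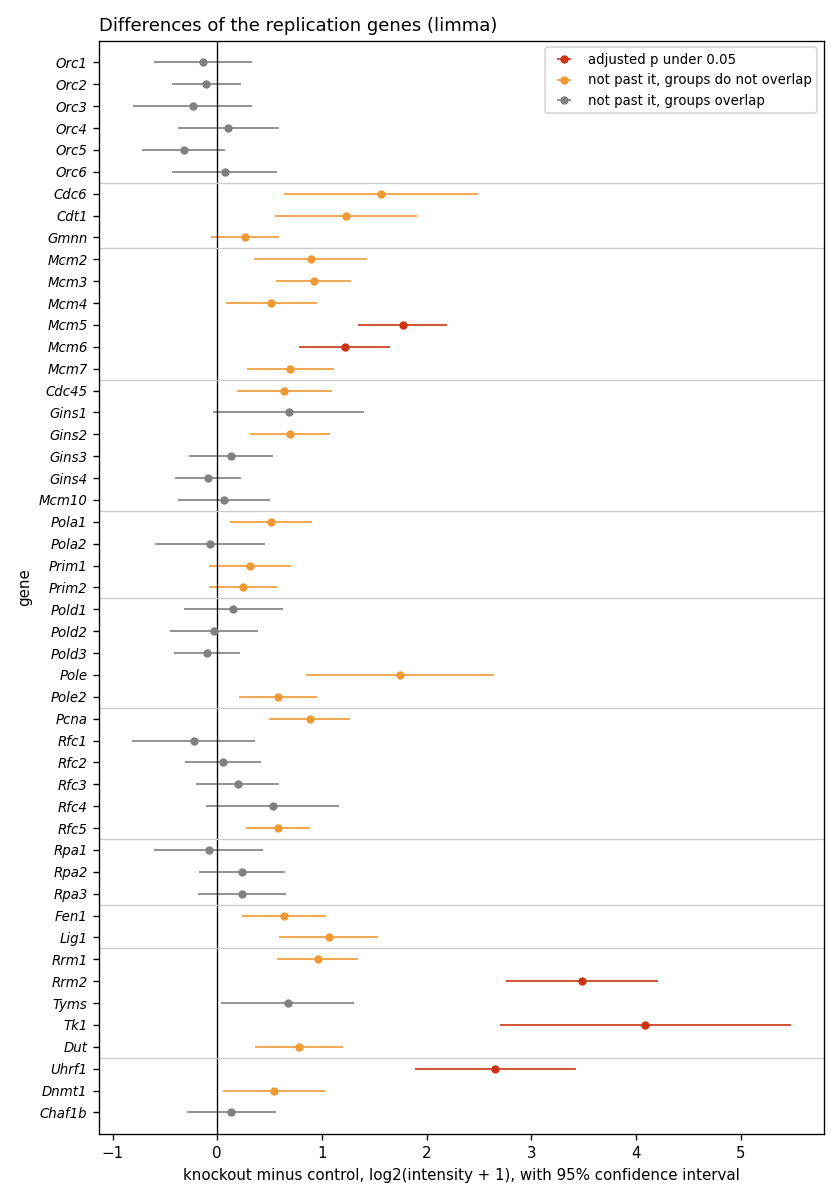
Points are knockout minus control differences of the 49 genes in log2(intensity + 1), with limma's 95% confidence intervals; red marks the 5 genes past the test and orange the other 21 whose groups do not overlap. Tk1 at 4.09 and Rrm2 at 3.49 lie farthest right, and the lowest is Orc5 at -0.32.

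Pcna, the sliding clamp, read 10.49, 10.58 and 10.19 in control and 11.21, 11.37 and 11.32 in knockout arteries, a difference of 0.88 (SE 0.16), or 1.84-fold. Its groups lay apart, yet it did not pass the test (adjusted p = 0.0831). Of the 5 clamp loader subunits, Rfc5 was the only one with no overlap, at 7.968, 7.995 and 7.934 against 8.561, 8.516 and 8.566 (difference 0.58, adjusted p = 0.127). Rfc4 differed by 0.53, Rfc3 by 0.20, Rfc2 by 0.06 and Rfc1 by -0.22, and Rfc1 turned to 0.44 with the mean of its probe sets. RPA, which coats single-stranded DNA, had overlapping groups in all 3 subunits on the probe sets used. Rpa1 differed by -0.08 (95% confidence interval -0.60 to 0.43), Rpa2 by 0.24 and Rpa3 by 0.23. A second Rpa2 probe set, at lower signal, read 6.069, 6.045 and 6.112 against 6.89, 6.623 and 6.481. Its groups did not overlap (difference 0.59, adjusted p = 0.28 over all probe sets). Rpa1 read 10.98, 10.61 and 11.23 against 11.09, 10.76 and 10.71, and its sign turned without control 75. Lig1, which seals Okazaki fragments, read 7.26, 7.37 and 7.64 against 8.77, 8.44 and 8.26, a difference of 1.07 (SE 0.19, adjusted p = 0.0841). Fen1, which trims them, differed by 0.63 (SE 0.17, adjusted p = 0.172).

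Uhrf1, which brings the methyltransferase Dnmt1 to newly copied DNA, read 6.21, 5.27 and 5.86 in control and 8.76, 7.96 and 8.58 in knockout arteries. It rose by 2.66 (SE 0.32), or 6.30-fold (95% confidence interval 3.70 to 10.7, adjusted p = 0.0255). With its probe sets averaged the difference was 1.98 (adjusted p = 0.0525). Dnmt1 itself read 9.34, 9.14 and 9.59 against 10.15, 9.91 and 9.64, where knockout 86 stood just above control 75 (difference 0.54, adjusted p = 0.281). Chaf1b, a subunit of the histone chaperone CAF-1, differed by 0.13 with overlapping groups.

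**Figure D3:**
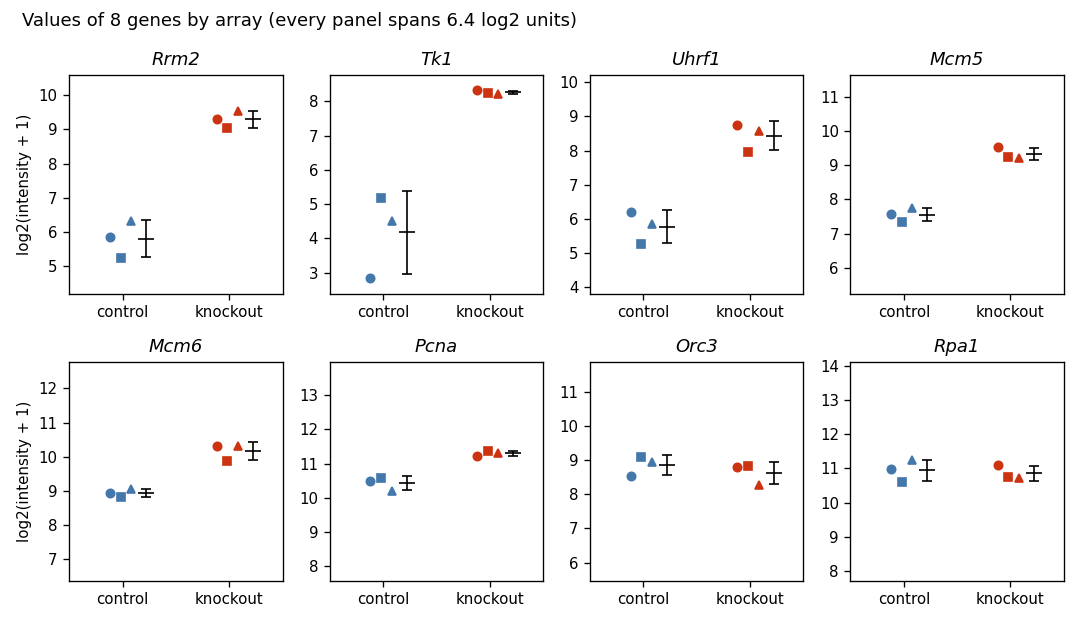
Log2(intensity + 1) of 8 genes, 1 point per array (circle, square and triangle for control 30, 74 and 75 and for knockout 72, 73 and 86), with mean ± SD (n = 3) beside them and the same span in every panel. Rrm2, Tk1, Uhrf1, Mcm5, Mcm6 and Pcna separate the groups, and Orc3 and Rpa1 do not.

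The calls changed with the arrays and genes that entered the fit. In the 6 fits of 5 arrays, 0 to 2 of the 49 genes passed the test, all as higher, where 0 to 55 of all 18193 genes did. Without knockout 72 none did, and none of all 18193 genes did in limma. In that fit 20 of the 49 had an unadjusted p under 0.05, against 2164 of all 18193 genes in either direction. Rrm2 kept its call in 5 of 6 such fits, with adjusted p = 0.0615 without knockout 72, while Mcm5, Mcm6 and Uhrf1 kept theirs in 0 of 6. Leaving out genes with a mean below the median over all single-symbol probe sets left 10654 genes, of which 188 rose. It tested 38 of the replication genes and called 9. Of these, 7 have control means above that median: Mcm5, Mcm6, Lig1, Mcm3, Pcna, Rfc5 and Rrm1. The other 2, Rrm2 and Uhrf1, passed the filter only through their knockout values, so the count of 9 is no support for them. That filter drops Tk1. The control means of Rrm2, Tk1 and Uhrf1 lie under that median, so their folds depend on the pseudocount.

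The genes had 109 probe sets, and 37 of the 49 had several. Of the 109, 7 passed the test over all 45037 probe sets as higher, where 0.366% of all probe sets did. They were 3 of Rrm2, 2 of Mcm5, and 1 each of Uhrf1 and Gins2. At any p, 85 of the 109 were higher and 24 lower, and the median difference over all probe sets was -0.04. The 3 Rrm2 probe sets differed by 3.49, 3.21 and 3.14. The other Uhrf1 probe set differed by 1.30 (adjusted p = 0.229). Another Mcm6 probe set, at low signal, differed by -0.60 (adjusted p = 0.716). In 13 genes probe sets differed in direction. The probe sets used for Rrm2 and Mcm5 carry an x in their names, the maker's mark for probes that may bind similar sequences, and both genes have another past the test without it.

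**Figure D4:**
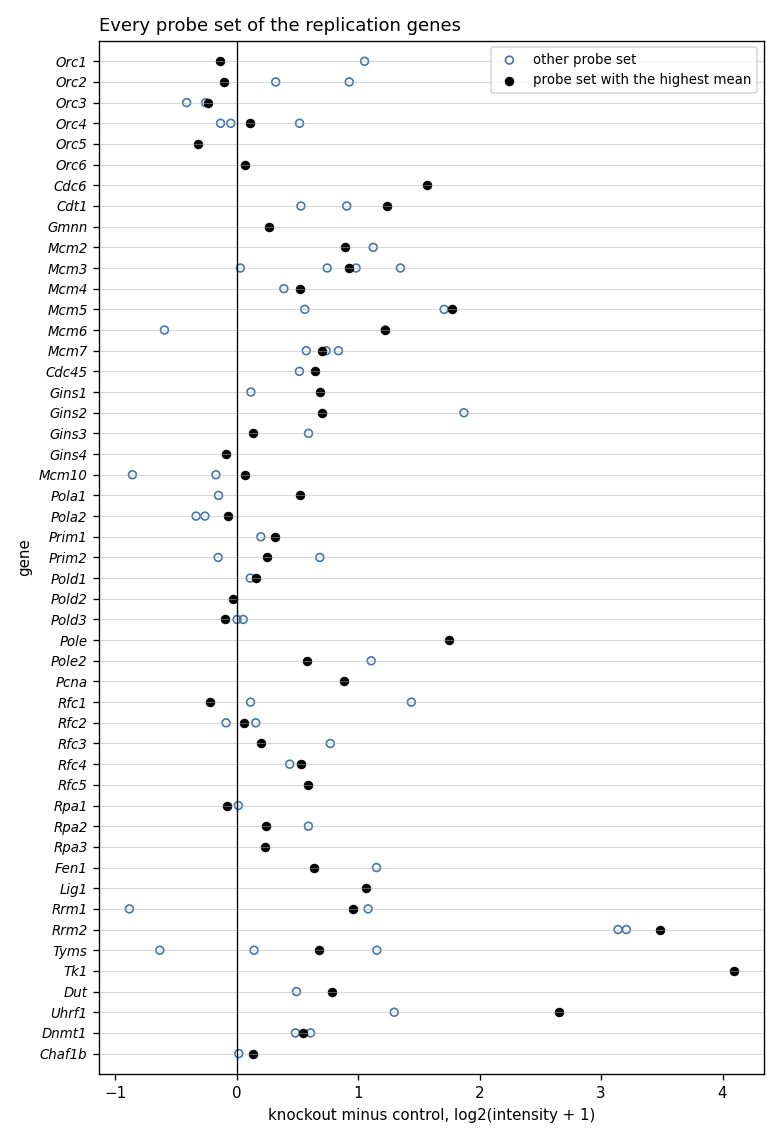
Knockout minus control differences in log2(intensity + 1) of all 109 probe sets; filled points are the probe set with the highest mean, which stands for the gene, and open points the others. The 3 Rrm2 points lie together between 3.14 and 3.49, while Orc1 has points at -0.14 and 1.05.

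Other genes of the pathway were read from lists that hold none of the 49. Of 26 origin firing and fork accessory genes, 3 rose and 0 fell, where 0.863% of all genes rose and 0.0934% fell. In 12 the knockout arrays lay above without overlap, against 10.4% of all genes. The median difference was 0.34, against -0.07 over all genes. Dbf4, the activator of the kinase that fires origins, read 5.49, 5.74 and 5.69 against 7.76, 7.76 and 8.43 and rose by 2.34 (SE 0.23, adjusted p = 0.0135). Its kinase Cdc7 rose by 1.21 (SE 0.17, adjusted p = 0.0408). The checkpoint mediator Clspn rose by 2.55 (SE 0.30, adjusted p = 0.0247), and Chtf18, a part of an alternative clamp loader, differed by 1.501 (adjusted p = 0.0672). In fits of 5 arrays, 0 to 1 of the 26 genes passed, and with all arrays but averaged probe sets 0 passed.

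No further nucleotide gene passed the test. Of 15 genes of thymidylate, folate and dNTP handling, 0 passed the test and the median was 0.10. At an unadjusted p under 0.05 there were 3 of the 15, where 15.6% of all genes lay under it in either direction, so the share is near the background. Mthfd2, a mitochondrial folate enzyme, differed by 0.92 (adjusted p = 0.191) and the salvage kinase Dck by 1.19 (adjusted p = 0.283). Rrm2b, the p53-regulated small reductase subunit, went the other way from Rrm2, at 9.07, 8.85 and 8.88 against 8.46, 8.56 and 8.32 (difference -0.49, adjusted p = 0.216), with no overlap. Of 17 genes that build purine and pyrimidine bases, 0 passed, 3 had an unadjusted p under 0.05, also near that background, 7 were higher and 10 lower, and the median was -0.02. The most separated were Adss at 0.49, Umps at 0.40, Dhodh at -0.45 and Impdh1 at 0.27, with adjusted p of 0.232 to 0.372. Of 13 genes of replication-coupled chromatin, 0 passed and 4 had an unadjusted p under 0.05, against 15.6% of all genes. The histone chaperone Nasp differed by 0.95 (adjusted p = 0.0791) and the histone mRNA binder Slbp by 0.61 (adjusted p = 0.167).

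**Figure D5:**
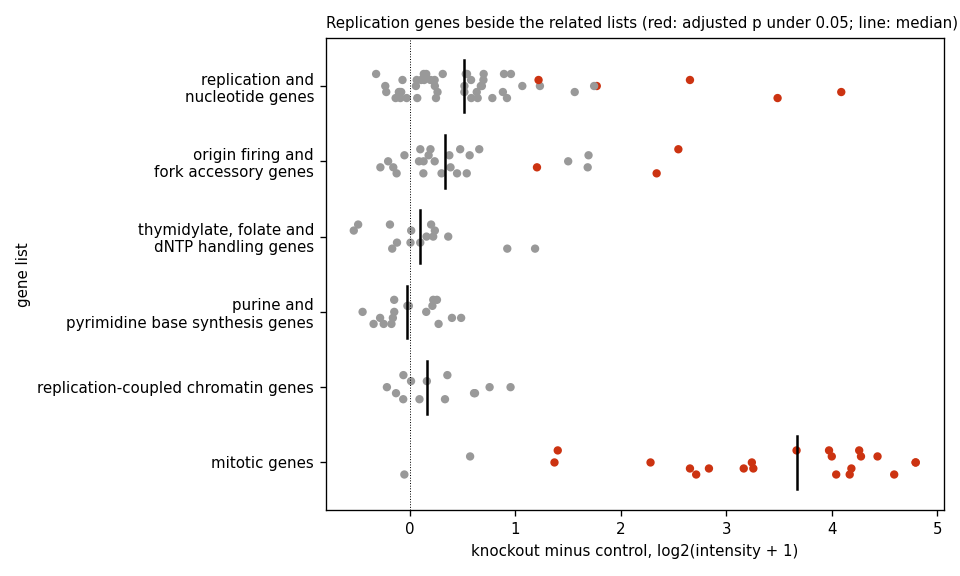
Each point is 1 gene placed by its knockout minus control difference in log2(intensity + 1), red where it passed the test, with a black line at each list's median. The medians are 0.52 for the replication genes, 0.34 for origin firing, 0.10, -0.02 and 0.16 for the nucleotide and chromatin lists, and 3.67 for the mitotic genes.

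The order of the 3 knockout arrays was counted in the replication genes and in mitotic genes. Of 23 genes listed as mitotic, most of which act after DNA is copied, 21 rose, where 0.863% of all genes did. Their median difference was 3.67, against -0.07 over all genes. Knockout 86 was the highest of the 3 knockout arrays in 22 of 23 mitotic genes but in 9 of 49 replication genes, where knockout 72 was highest in 26 and knockout 73 in 14. In the 26 replication genes whose groups did not overlap, knockout 72, 73 and 86 were highest in 12, 6 and 8, and Rrm2 and Mcm6 were highest in knockout 86. The summed normalised intensity of the mitotic genes was 1697 to 1944 in control arteries, 9858 and 9443 in knockout 72 and 73, and 15820 in knockout 86. The sum over the replication genes was 13140 to 14240 in control arteries and 20720, 19120 and 18770 in knockout 72, 73 and 86. This contrast between the lists was not tested. Knockout 86 is also the animal marked F. Macrophage marker sums were 11960, 30930 and 9254 in knockout 72, 73 and 86, all above control, and their part in these sums was not tested. Without knockout 73 the median difference of the replication genes was 0.48.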

How the data were processed

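Total RNA of the mesenteric arteries of 6 mice was measured, 1 Affymetrix array per mouse. The authors deposited 1 linear intensity for each probe set. Their summarising and scaling method is not stated in the sources used here. Median intensity per array was 62.8 to 72.6, and 589 to 680 values per array are exactly 1. With 3 arrays per group, their number limits the precision. Each limma p sets the group difference against the spread between arrays, moderated over all genes. With 1 array per mouse, differences between animals and technical differences cannot be told apart in that spread.

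Of 45037 probe sets, 34945 have 1 symbol in the 2016 annotation, 932 several and 9160 none. Intensities were taken as log2(intensity + 1), quantile normalised, and each gene represented by its single-symbol probe set with the highest mean. No filter on low signal was set. limma 3.58.1 (R 4.3.3; lmFit, eBayes, 2-sided) compared the groups over 18193 genes, with a threshold of 0.05 after Benjamini-Hochberg adjustment. The procedure was tested on 10 simulated sets. It recovered 5.1% of 2-fold changes and 63.5% of 4-fold changes, and 5.27% of its calls were false. A gene that did not pass may therefore still differ.

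The genes and lists were chosen with earlier results of these data known. Named are all 49 genes on the array, up to 4 genes of smallest p per pathway list, Itgb1, Tagln and the marker lists. Promoters are from RefSeq (GRCm38.p6). Alternatives were a filter, other probe set rules, normalizations, pseudocount, variance priors, array weights, threshold, and each array left out. List counts under these settings were added after seeing the data.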

Additional observations from a re-analysis of the deposited data

How the results depend on the processing

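No paired analysis was possible because the labels pair no animals. The count of replication genes that rose, 5 as reported, moved with the setting, and so did that over all genes, 157 as reported. With the filter at the median it was 9 (Rrm2 and Uhrf1 pass it only through their knockout values), against 188 of 10654 genes. In the test by probe set it was 3, against 165 of 45037 probe sets. A pseudocount of 16 gave 10 against 268 of all genes, a trended robust prior 9 against 283, and array weights 8 against 238. At an adjusted p under 0.1 it was 9 against 263. With each array left out it was 0 to 2 against 0 to 55, and in the other settings 4 to 6 against 122 to 175. The count of replication genes that fell was 0 in every setting run, with 0 at an unadjusted p under 0.05. The test by probe set counts here only the probe set used for each gene. Other probe sets of Mcm10 (-0.86) and Rrm1 (-0.885) were lower at an unadjusted limma p under 0.05. The median difference ranged from 0.29 to 0.58, and that of all genes was -0.12 with median centring. Of 724 recomputed differences, 658 kept direction and side of the threshold, 29 lost the call, 19 gained it and 18, in 9 genes that had not passed, changed sign. With the mean of probe sets, these were Orc1 (0.46), Orc2 (0.38), Mcm10 (-0.32) and Rfc1 (0.44); without normalization, Pola2 (0.0044) and Pold2 (0.034); with array weights, Pold2 (0.0065). With each array left out, differences ranged from -0.032 to 0.20 for Orc4, -0.11 to 0.22 for Orc6, -0.079 to 0.16 for Mcm10, -0.21 to 0.11 for Pola2, -0.13 to 0.071 for Pold2 and -0.24 to 0.062 for Rpa1. Mcm6 lost its call with the mean of probe sets, by probe set and with median centring, Tk1 by probe set, and Uhrf1 with the mean of probe sets. Origin firing genes past the test, 3 as reported, numbered 0 to 5 with all arrays (0 with the mean of probe sets) and 0 to 1 with an array left out. Mitotic genes past the test numbered 10 to 21 in settings with all arrays and 0 to 14 with an array left out. The cause was not tested for any of these.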
